A study of Mus musculus with 45 samples.

Results

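The 7 genes described here serve antigen presentation by major histocompatibility complex (MHC) class II: Cd74, H2-Aa, H2-Ab1, H2-Eb1, H2-DMa, H2-DMb1 and Ciita. They were chosen by name, and all 7 were found among the 52636 genes of both deposited expression tables. The study measured RNA in mouse intestinal stem cells that carry the receptor Lgr5, and in organoids, with and without Lgr5. Its 45 libraries comprise 15 of sorted cells in 7 groups and 30 of organoids in 12 groups. The comparisons described here concern development, gut region, loss of Lgr5, and the Rspondin ligand and its dose.

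At E16.5 (E, embryonic day) the cells were eGFP-positive cells of the whole small intestine. They came from Lgr5-DTReGFP embryos that were either heterozygous (HE, 2 pools) or homozygous and so Lgr5-null (KO, 2 pools). Litter 85 gave a pool of 7 HE embryos and a pool of 2 KO embryos. Litter 97 gave pools of 8 HE and 6 KO embryos. At E18.5 there were 2 single HE embryos. Adult Lgr5-DTReGFP HE mice, 2 months old, were mice 71 and 77, and each gave a duodenum and an ileum library. A separate set came from the ileum of adult Lgr5-Cre mice, 2 months old, given 2 mg tamoxifen and sampled 48 hours later, labelled HE (2 mice) or conditional knockout (cKO, 3 mice carrying a floxed Lgr5 allele). Those cells were sorted for eGFP and RFP. Lgr5-DTReGFP organoids from E17.5 small intestine at passage 4 came from 3 wild-type (WT10, WT5, WT30) and 2 knockout (KO7, KO2) cultures. Each culture was grown with Rspondin 1, 2 or 3 at 100 or 5 ng/ml. In every sorted group an Lgr5 reporter or Cre allele selects the cells, so no sorted group is free of an Lgr5 allele change, and each E16.5 library averages several embryos.

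Class II molecules are pairs of an alpha and a beta chain that carry peptides from endosomes to the cell surface, where helper T cells recognise them. The invariant chain Cd74 fills the groove of new pairs, the H2-DM pair helps exchange its remnant for peptide, and the coactivator Ciita switches the genes on. Professional antigen-presenting cells such as B cells, macrophages and dendritic cells express the set at high level, and intestinal epithelium, ileal stem cells included, can express it as well, more so under interferon gamma.

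The Lgr5 level of each library was read first as a check of the labels. In counts-per-million units (CPM), the E16.5 HE pools had Lgr5 at 104 and 125 and the KO pools at 64.8 and 51.6. It was at 306 and 292 CPM in the E18.5 embryos, 346 and 308 CPM in the duodenum and 339 and 356 CPM in the ileum of the DTReGFP adults. In the Cre set Lgr5 was at 52.8 and 87.5 CPM in the mice labelled HE and at 89.1, 109 and 90.7 CPM in those labelled cKO, so its transcript level did not separate those labels. In wild-type organoids Lgr5 ran from 39.4 to 458 CPM at 100 ng/ml (median 116) and from 0.35 to 28.7 CPM at 5 ng/ml (median 5.40). In KO organoids it ran from 35.1 to 104 CPM (median 66.4) and from 0.2 to 90.5 CPM (median 4.25). Lgr5 transcript thus remained detectable in both kinds of knockout.

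The genotypes of the Cre set are given differently in 2 sources. Each column of the study's own gene list for this comparison matched 1 deposited library on 859 of 859 genes, within 0.005 CPM. For 2 of the 5 libraries the list names another genotype than the labels: the library labelled HE 1 stands there as cKO and the one labelled cKO 2 as HE. The tests of the 7 genes in this set are therefore given under both versions, and some checks under the labels only. Sex differed too. Xist, transcribed from the inactive X chromosome, was at 1.70 and 0.65 CPM in the labelled HE mice and at 1298, 1162 and 1551 CPM in the labelled cKO mice. Sex and labelled genotype cannot be told apart in this set, while under the list's genotypes each group holds both sexes.

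Other libraries stand apart as well. At E16.5 Xist was at 1.55 CPM in KO pool 1, against 1104 and 639 CPM in the HE pools and 1224 CPM in KO pool 2. E18.5 embryo 1 had Xist at 11.3 CPM and embryo 2 at 5175 CPM, while the DTReGFP adults were at 6.65 to 10.8 CPM. All wild-type organoid libraries had Xist at 1030 CPM or more. The KO organoids had it at 0.45 to 39.1 CPM, except 213 CPM in KO2 with Rspondin 1 at 100 ng/ml, and Y-linked Ddx3y at 55.0 CPM or more, so sex and genotype cannot be told apart in the organoids. KO2 with Rspondin 2 had Lgr5 at 90.5 CPM at 5 ng/ml and at 75.0 CPM at 100 ng/ml, unlike the other 14 pairs of libraries, in which Lgr5 was higher at the high dose. E16.5 HE pool 1 was the shallowest library. Sorted libraries held 1.28 to 9.98 M reads (median 4.37 M) and organoid libraries 18.1 to 33.1 M (median 24.6 M). A count of 0 allows up to 3 reads, which is 0.3 to 2.35 CPM in the sorted libraries and 0.0906 to 0.165 CPM in the organoids. These limits cover counting error only.

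The 7 genes lie on 3 chromosomes. In build GRCm38, with GENCODE annotation, 5 of them sit among the 10 class II genes that span 252 kb of chromosome 17. H2-DMa lies at chr17:34119541-34139101 and H2-DMb1 at chr17:34153072-34160230, both on the plus strand. H2-Ab1 at chr17:34257689-34269419 and H2-Eb1 at chr17:34305867-34316674 are also on the plus strand, and H2-Aa at chr17:34282744-34287823 is on the minus strand. Reads over H2-DMa can belong to neighbours, since 4 annotated genes overlap it.

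Promoters are shown because these genes moved together across the sorted groups and their known shared control acts there. The RefSeq promoter set used here held entries for 4 of the 7 genes: H2-Aa, H2-Eb1, H2-DMa and H2-DMb1. Below are the 150 bases before the start of H2-Aa (chr17:34287824-34287973, minus strand) and of H2-Eb1 (chr17:34305717-34305866, plus strand), from RefSeq on build GRCm38.p6, written along each gene's strand. Capitals mark matches of 3 motifs searched on both strands: the Y box (GATTGG), the right part of the X box (CNNATGATG) and the cyclic AMP response element (TGACGTCA). The letters of the X box were written after these sequences had been seen.
H2-Aa: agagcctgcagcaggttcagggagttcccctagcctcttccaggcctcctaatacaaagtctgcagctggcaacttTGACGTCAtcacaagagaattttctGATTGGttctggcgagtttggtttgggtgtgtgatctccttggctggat
H2-Eb1: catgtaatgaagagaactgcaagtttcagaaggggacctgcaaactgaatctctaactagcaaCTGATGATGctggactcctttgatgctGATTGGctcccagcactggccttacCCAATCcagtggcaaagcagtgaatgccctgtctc

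In H2-Aa the Y box stood 49 bases and the response element 74 bases before the start. In H2-Eb1 the X box part stood 87 bases and a Y box 60 bases before the start, with a further Y box on the reverse strand. Among windows of this length at 32851 promoters, 10.9% held the Y box, 1.46% the X box part and 1.36% the response element. An X box part followed within 30 bases by a Y box on the same strand occurred in 4 of them (0.0122%): H2-Eb1, H2-DMb1, H2-DMb2 and H2-Ob. None of the 3 motifs was found in the 2 entries of H2-DMa, at chr17:34122682-34122831 and chr17:34125368-34125517. Both windows lie inside the span given above for H2-DMa and not before its start. The H2-DMb1 window, chr17:34153041-34153190, runs past the start given above for that gene, with 119 of its 150 bases in an exon. The H2-DMb2 window, chr17:34145099-34145248, lies inside the span of H2-DMb2, chr17:34143307-34151555. A match describes letters in these windows and nothing about binding. Outside the region, Cd74 lies at chr18:60803848-60812652, with Mir5107 inside it, and Ciita at chr16:10480059-10528418, where Dexi overlaps it on the other strand. Both genes are on the plus strand.

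Per length of exon, Cd74 was the most abundant of the 7 genes in 14 of the 15 sorted libraries, and in E18.5 embryo 1 it was H2-Eb1. In the DTReGFP ileum Cd74 averaged 699 ± 133 CPM per kb (SD, n = 2), H2-Aa 166 ± 42.4 and H2-Ab1 94.0 ± 23.2, while Ciita was the lowest in every adult library. Summed over the 7 genes, the level was 2651 and 1934 CPM in the DTReGFP ileum, 1812 to 2484 CPM in the Cre ileum, 436 and 250 CPM in the duodenum, 66.0 and 35.9 CPM in E16.5 HE pools, 7.40 and 19.5 CPM in E16.5 KO pools, and 4.05 and 6.10 CPM at E18.5. The 3 ileum groups overlapped one another, and below them duodenum, E16.5 HE, E16.5 KO and E18.5 followed without overlap, with E16.5 KO pool 1 near the E18.5 embryos. Across the 15 libraries the genes varied together: Pearson r of log2(CPM + 1) between pairs of members ran from 0.907 (Cd74 with H2-Eb1) to 0.99 (Cd74 with H2-Aa), as a description of libraries that fall into stage and region clusters.

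**Figure D1:**
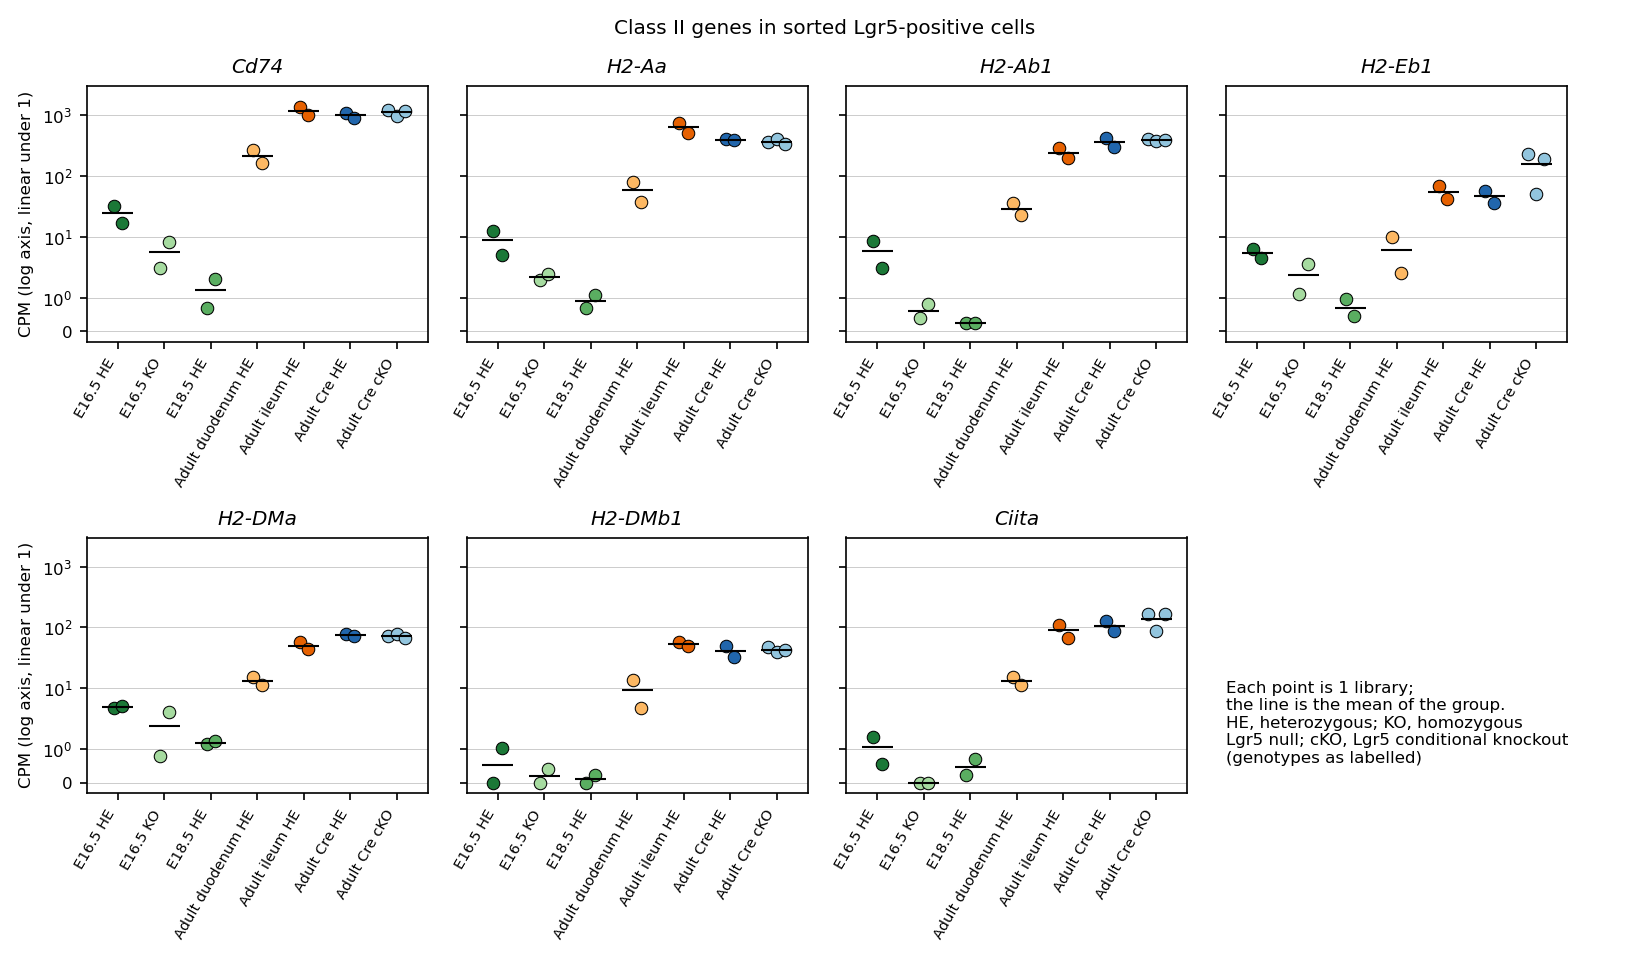
Level of each class II gene (CPM, log axis that is linear under 1) in the 15 sorted-cell libraries, with 1 point per library and a line at each group's mean. Cd74 stands at 0.7 and 2.00 CPM in the E18.5 embryos and at 1331 and 1016 CPM in the adult ileum.

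The comparison of adults with E18.5 asks what changes as fetal cells give way to adult stem cells. Cd74, the chaperone, was at 0.7 and 2.00 CPM in the E18.5 embryos (3 and 9 reads). It was at 266 and 160 CPM in the adult duodenum and at 1331 and 1016 CPM in the ileum. Every adult library of Cd74 was far above both embryos. All 7 class II genes were higher in the adults by limma (fold change above 1.5 at a false discovery rate, FDR, of 0.1), against 9.36% of all genes tested that were called higher. H2-Ab1, H2-Eb1, H2-DMb1 and Ciita were under 1 CPM in both embryos. They passed the filter of 1 CPM only through the adults, where they are high, so their tests are not independent of that filter. Fold changes throughout are differences of log2(CPM + 1), which understate changes of genes at low CPM.

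Cd74 rose by 7.77 (SE 0.83, limma adjusted p = 0.00118), from 1.35 ± 0.919 CPM (SD, n = 2) to 693 ± 571 CPM (SD, n = 4). The 4 adult libraries are 2 regions of 2 mice and not independent. After the regions of each mouse were averaged, all 7 genes passed as well, and 2687 of 19554 genes were then called higher. Among the classical chains, H2-Aa was at 0.7 and 1.1 CPM in the embryos, 80.1 and 37.3 CPM in the duodenum and 744 and 516 CPM in the ileum. H2-Ab1, its beta chain partner, was at 0.25 CPM in both embryos, a single read each, and at 35.7 and 22.4 CPM in the duodenum and 283 and 199 CPM in the ileum. H2-Eb1, the beta chain of the other class II pair, was at 0.95 and 0.45 CPM in the embryos, 9.85 and 2.5 CPM in the duodenum and 67.7 and 42.4 CPM in the ileum. In all 3 chain genes both regions of both mice stood above both embryos, as in 18.9% of genes tested, and the nearest values were those of H2-Eb1 in the duodenum. The rises were 6.62 (SE 1.13) for H2-Aa, 6.06 (SE 0.98) for H2-Ab1 and 3.45 (SE 1.08) for H2-Eb1, with limma adjusted p = 0.00825, 0.00648 and 0.0704.

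The genes of peptide exchange and the regulator followed the same order. H2-DMa was at 1.20 and 1.35 CPM in the embryos, 15.3 and 11.2 CPM in the duodenum and 57.0 and 43.5 CPM in the ileum. H2-DMb1 was at 0 and 0.25 CPM, then 13.8 and 4.75 CPM, then 56.7 and 49.7 CPM. Ciita was at 0.25 and 0.7 CPM in the embryos, 15.2 and 11.4 CPM in the duodenum and 111 and 67.1 CPM in the ileum. No group of these 3 genes overlapped another, and the duodenum lay between embryo and ileum each time. How many of all genes show this order was not counted. All adult libraries stood above both embryos in 18.9% of genes tested, and ileum above duodenum in 23.6% of those tested between regions. The limma differences were 3.56 (SE 0.61) for H2-DMa, 4.32 (SE 0.88) for H2-DMb1 and 4.59 (SE 0.86) for Ciita. With at most 3 reads of H2-DMb1, Ciita and H2-Ab1 in an embryo, the size of those differences depends on the 1 CPM added before the logarithm. Without E18.5 embryo 1, or without embryo 2, 1 embryo was left in the group. Most calls were then lost, those of the 7 genes and those of all genes alike. Without ileum 2, 6 of the 7 genes passed, where 1844 of 19188 genes were called higher. Fewer cells of a type and less RNA per cell cannot be told apart in these bulk libraries.

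Other genes of presentation were read from gene lists. Of 13 class I genes, which present peptides from inside the cell, all were tested and 11 rose in the adults, led by Nlrc5 (5.63), the class I counterpart of Ciita, Psmb8 (3.31), H2-T23 (2.80) and H2-D1 (2.78). Their median change was 2.00, that of the 7 class II genes 4.59 and that of all genes tested -0.04. Of the 5 other class II region genes, 3 were tested and H2-DMb2 rose (4.10). It is a near copy of H2-DMb1, so reads may be shared between them. Of 9 genes of the interferon gamma axis, 8 were tested and Irf1 (0.73) and Jak2 (0.71) rose. Ifng itself was at 0 in both embryos and at most 0.25 CPM in the adult DTReGFP libraries. None of the 7 factors that bind class II promoters (Rfx5, Rfxap, Rfxank, Nfya, Nfyb, Nfyc, Creb1) passed. Of 10 genes of class II loading and turnover, Ctss, the protease that trims the invariant chain, rose by 1.32, and Ifi30, Ctsb and Ctsl fell. Of 7 costimulation genes, Cd274 rose (1.41).

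Markers of presenting cells were read beside this. The 4 genes of all leukocytes summed to 3.80 and 2.5 CPM at E18.5, 58.8 and 73.2 CPM in the duodenum and 14.2 and 29.4 CPM in the ileum. In the adults most of this was Ptprc, which was the 1 of 3 tested that rose (4.35). The higher sum in duodenum came from Ptprc, and of the 3 genes tested between the regions the other 2 were higher in ileum, uncalled. The macrophage and monocyte list without Lyz2, a near copy of the Paneth gene Lyz1, summed to 28.0 and 22.6 CPM at E18.5, 16.8 and 19.5 CPM in the duodenum (most abundant gene Cd68) and 22.0 and 28.9 CPM in the ileum (Itgam). Of its 15 genes 8 were tested, Lyz2 rose (8.38) and Csf1r fell (-0.65). The B cell list summed to 2.10 to 3.35 CPM in these adult libraries and the dendritic cell list to 0.95 to 3.20 CPM. No B cell gene was tested, and none of the dendritic list passed. The T cell list summed to 2.45 and 1.45 CPM at E18.5, 6.70 and 23.8 CPM in the duodenum and 7.95 and 2.70 CPM in the ileum. Of its 13 genes 4 were tested, all 4 were higher in the adults (median 1.10), and none passed.

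The sorted cells themselves also differed in make-up. All 7 Paneth genes and all 4 tuft genes rose in the adults, as did 3 of 6 goblet genes and 3 of 8 stem cell genes (Tnfrsf19, Olfm4, Axin2). Of 8 enterocyte genes 1 rose and 4 fell, of 8 general epithelial genes 2 rose and 1 fell, all 5 erythroid genes fell, and 4 of the 5 stromal genes tested fell. The part of these cell types in the class II difference was not tested. Epcam, a marker of epithelium, was at 844 CPM or more in all 15 sorted libraries.

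**Figure D2:**
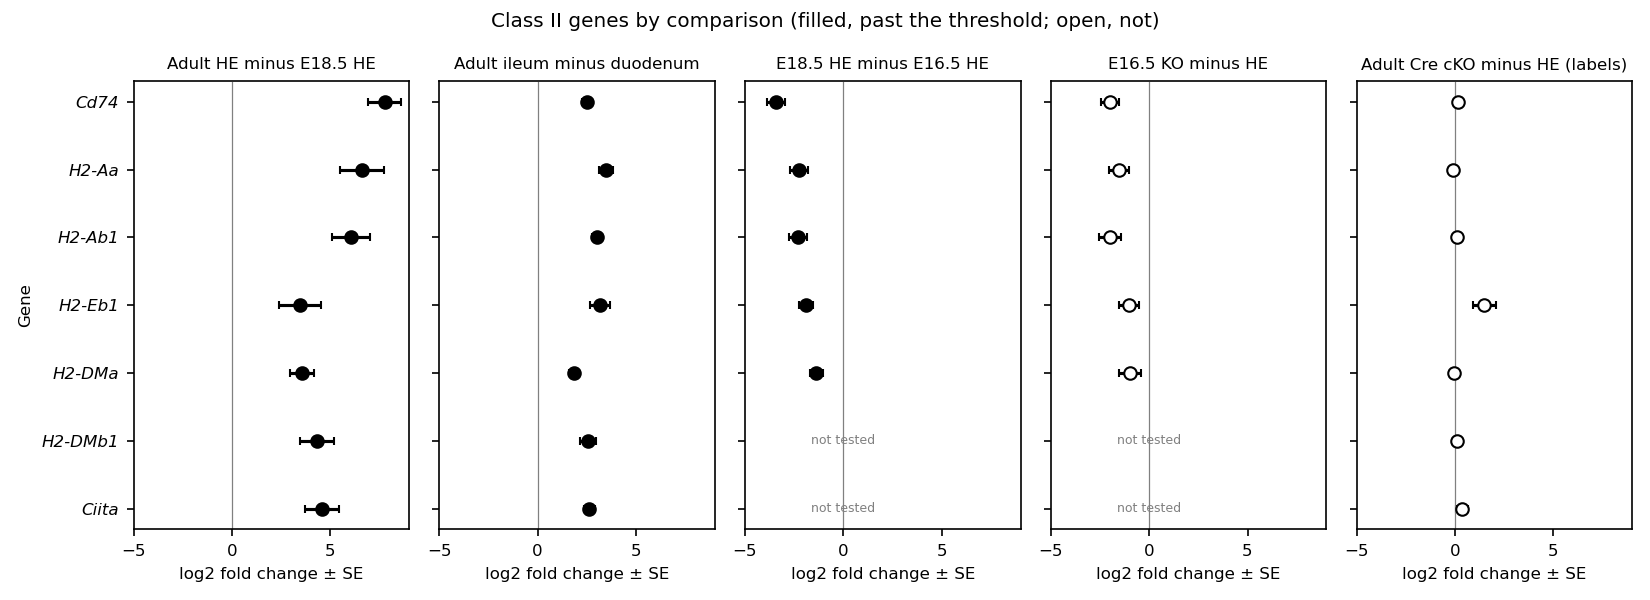
Difference of log2(CPM + 1) with its standard error for each class II gene (vertical axis) in 5 comparisons of sorted cells, filled where the limma test was passed and open where it was not. Cd74 runs from 7.77 in adults against E18.5 to -3.42 in E18.5 against E16.5, and it stands at 0.15 in the labelled Cre comparison.

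The ileum was compared with the duodenum of the same 2 mice to see how adult stem cells differ along the gut. These adult libraries also serve in the comparison with E18.5. In both mice all 7 class II genes were higher in the ileum, with no overlap between the regions, as for 23.6% of genes tested, and all 7 passed by limma, against 2.24% of genes tested that were called higher in ileum. Cd74 averaged 1174 ± 223 CPM (SD, n = 2) in ileum and 213 ± 74.7 CPM in duodenum, a difference of 2.49 (SE 0.26, limma adjusted p = 0.00487). Mouse by mouse it was 2.32 in mouse 71 and 2.66 in mouse 77.

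Of the chain genes, H2-Aa differed most between the regions, by 3.48 (SE 0.35, limma adjusted p = 0.00428), with 3.20 and 3.76 in the individual mice. H2-Ab1 differed by 3.02 (SE 0.26, limma adjusted p = 0.00302) and H2-Eb1 by 3.15 (SE 0.51, limma adjusted p = 0.0187). The H2-DM pair, which edits the bound peptide, showed 1.84 (SE 0.23) for H2-DMa and 2.55 (SE 0.41) for H2-DMb1. H2-DMa had the smallest difference of the 7 genes and nearly the same one in both mice, 1.83 and 1.86. Ciita, the regulator, differed by 2.62 (SE 0.27, limma adjusted p = 0.00459), with 2.79 in mouse 71 and 2.45 in mouse 77.

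Calls were lost when a library was left out. Each such fit holds 1 library of a region. Without duodenum 1 or duodenum 2 neither members nor other genes were called by limma. Without ileum 1 or ileum 2 part of the members lost their call, and fewer of all genes were called as well. In each of these 4 fits all 7 members were at unadjusted p under 0.05, as were 1469 of 20051 to 2790 of 19784 genes. Over all alternatives Cd74 differed by 2.12 to 2.85 and H2-Aa by 2.94 to 4.02. With the mouse as a block 2065 genes passed in place of 1280, and 7 members either way.

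None of the 13 class I genes passed in either direction by limma. None of the 7 promoter factors and none of the 10 loading genes passed. Of 8 interferon axis genes tested Gbp2 (2.19) and Irf8 (1.18) were higher in ileum, and of 4 costimulation genes tested Cd40 (1.42) and Cd276 (1.1). Of the other class II region genes H2-DMb2 (2.59) and H2-Ea-ps (2.58), a polymorphic pseudogene, were higher, 2 of 3 tested. Among leukocyte markers Ptprc was lower in ileum (-1.75), the 1 of 3 tested that passed, and in the macrophage list Itgam was higher (1.48), 1 of 7 tested. None of the 4 T cell genes and 1 dendritic gene tested passed, and no B cell gene was tested. All 4 tuft genes and all 8 enterocyte genes were lower in ileum, as were 2 of 8 epithelial genes, and 1 of 6 goblet and 1 of 8 stem cell genes (Tnfrsf19) were higher. None of the Paneth, stromal or erythroid genes tested passed. The part of these cell types in the regional difference was not tested.

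**Figure D3:**
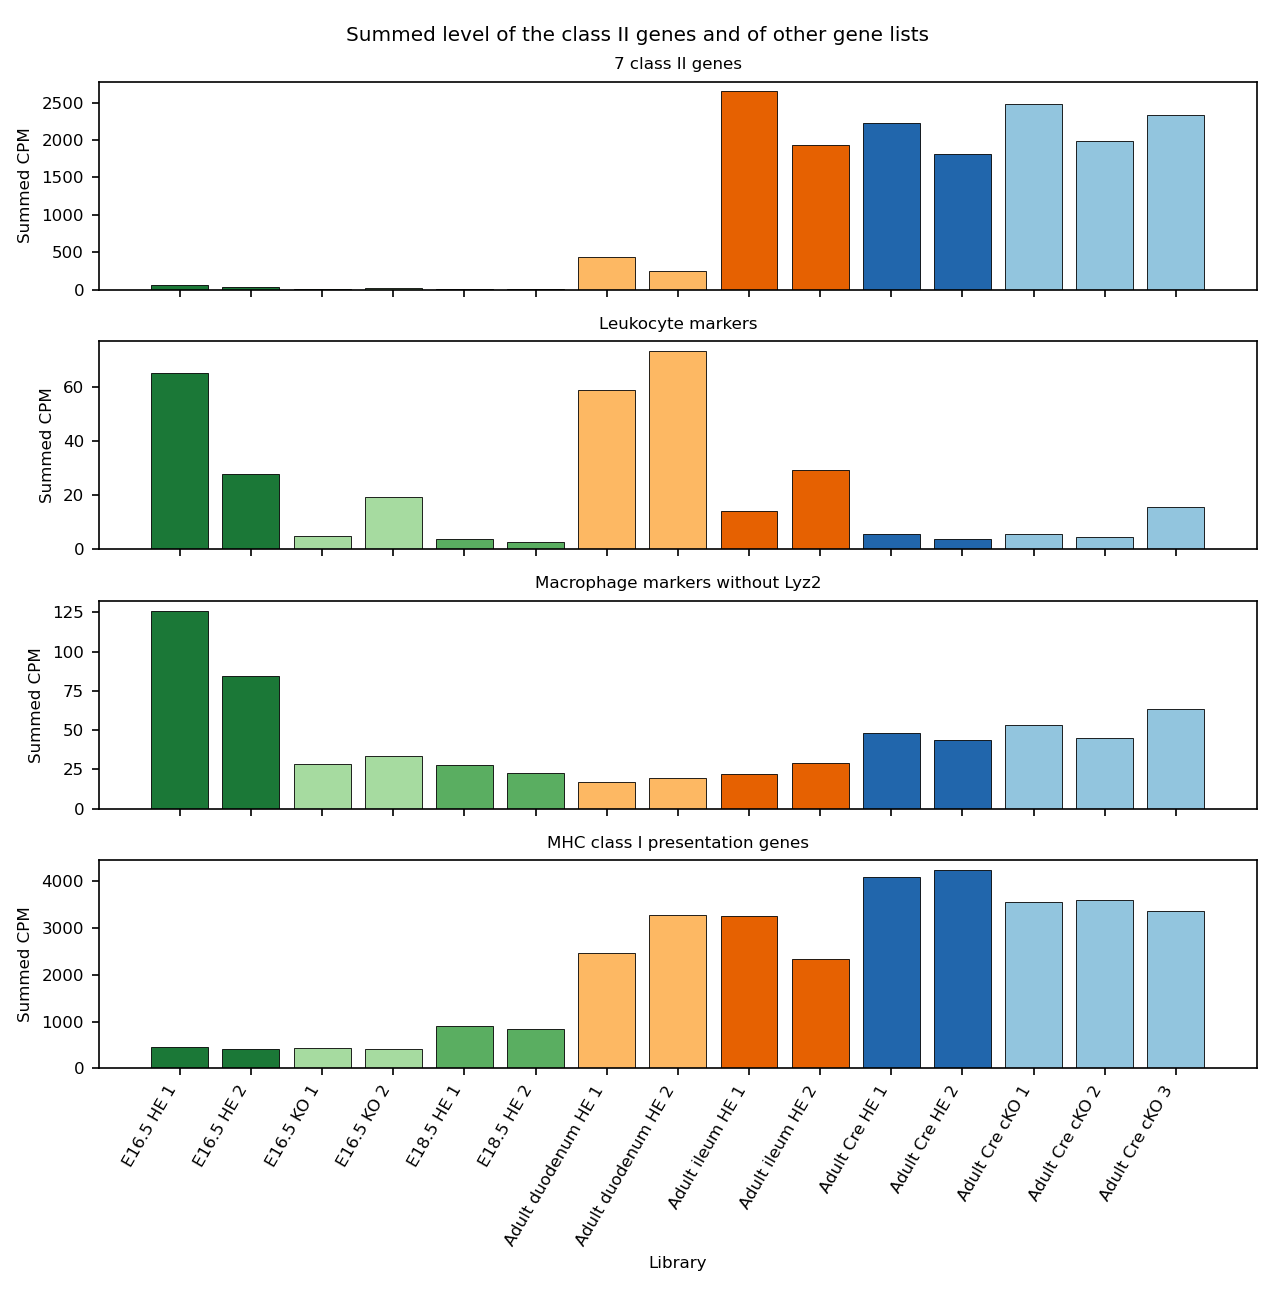
Summed level (CPM) of the 7 class II genes and of 3 gene lists in each sorted-cell library, 1 bar per library, coloured by group. The class II sum is 2651 and 1934 CPM in the DTReGFP ileum against 436 and 250 CPM in the duodenum, and the leukocyte sum is 14.2 and 29.4 against 58.8 and 73.2 CPM.

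Between E16.5 and E18.5, in HE embryos, the comparison follows fetal development, with E18.5 libraries that also serve against the adults and E16.5 HE libraries that also serve against the KO. Cd74 was at 32.1 and 16.6 CPM (41 and 33 reads) in the E16.5 HE pools, above the 0.7 and 2.00 CPM of the E18.5 embryos. H2-Aa was at 12.6 and 5.05 CPM at E16.5, H2-Ab1 at 8.65 and 3.05 CPM and H2-Eb1 at 6.30 and 4.55 CPM. H2-DMa was at 4.75 and 5.05 CPM. These 5 genes were higher at E16.5 in every library, as were 30.5% of genes tested, and all 5 fell by limma, against 19.4% of genes tested that were called lower. H2-Ab1 and H2-Eb1 were under 1 CPM in both E18.5 embryos, and Cd74 and H2-Aa in 1 of them. These genes passed the filter of 1 CPM only with the E16.5 pools, where they are high. Their tests are therefore not independent of that filter. H2-DMb1 (0 and 1.05 CPM at E16.5) and Ciita (1.60 and 0.55 CPM) were at or under 3 reads in every embryonic HE library and were not tested.

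The falls ran from -3.42 (SE 0.45, limma adjusted p = 0.00209) for Cd74 to -1.38 (SE 0.33, limma adjusted p = 0.0154) for H2-DMa. H2-Aa changed by -2.26 (SE 0.47), H2-Ab1 by -2.32 (SE 0.47) and H2-Eb1 by -1.92 (SE 0.36). The median of all genes was 0.23 here and 0.11 in the edgeR fit, which scales libraries by TMM, and edgeR called the same number of members, 5. Without E18.5 embryo 1, or without embryo 2, 1 embryo was left in the group, and all calls by limma were lost, of members and of other genes. Over all alternatives Cd74 differed by -4.21 to -2.97 and H2-DMa by -2.09 to -1.33.

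Markers of other cells moved with this difference. All 4 leukocyte genes fell (Ptprc by -3.83), from a sum of 65.1 and 27.9 CPM at E16.5 to 3.80 and 2.5 CPM. Of 15 macrophage genes 13 were tested and 11 fell, led by Cybb (-3.43), Adgre1 (-2.5), Mrc1 (-2.48) and Aif1 (-2.39), from 126 and 84.2 CPM without Lyz2 to 28.0 and 22.6 CPM. The B cell list summed to 7.15 and 3.65 CPM in the E16.5 HE pools, and 1 gene, Cd79b, was tested and fell. The dendritic list summed to 11.9 and 4.65 CPM, and 1 of 2 genes tested fell (Itgax). Both T cell genes tested fell. All 8 stromal genes fell, from 1625 and 699 CPM to 62.4 and 73.8 CPM, and 4 of 5 erythroid genes. The level of the class II genes thus moved in the same direction as these markers, and their part in the result was not tested.

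Of all 18408 genes tested here 5576 rose and 3562 fell. Of 12 class I genes tested 8 rose, led by Tapbp (2.20), H2-Q4 (1.56), B2m (1.45) and Tap1 (1.44). Of the interferon axis 3 of 8 tested rose, Ifngr2 (2.38), Socs1 (0.93) and Jak2 (0.68), and Gbp2 fell (-2.30). Of 10 loading genes Lamp1 rose (1.19) and 4 fell, led by Ctsl (-2.52), Cd63 (-2.30) and Ctss (-1.68), and of the promoter factors Nfyc rose and Nfyb fell. Of 5 costimulation genes tested Icosl rose (1.71), and Cd40 (-2.07) and Cd86 (-1.97) fell. Of 8 stem cell genes 7 rose and 1 fell, and of 8 epithelial genes 6 rose. Enterocyte genes split into 2 up and 2 down, as did goblet genes, 2 of 6 tested Paneth genes rose, and the 1 tuft gene tested did not pass.

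The E16.5 KO was compared with HE to see what loss of Lgr5 changes in fetal stem cells. The HE pools had Cd74 at 32.1 and 16.6 CPM, against 3.10 and 8.35 CPM (8 and 21 reads) in the KO pools. H2-Aa was at 12.6 and 5.05 CPM in HE and at 1.95 and 2.40 CPM in KO. H2-Ab1 was at 8.65 and 3.05 CPM in HE and at 0.4 and 0.8 CPM, 1 and 2 reads, in KO. Both KO pools were below both HE pools for each of these genes. H2-Eb1 (1.15 and 3.60 CPM in KO) and H2-DMa (0.8 and 4.00 CPM in KO) also had both KO pools below both HE pools, narrowly in litter 97. With 2 pools a group such a separation is common: 3199 of 17276 genes had both KO pools below both HE pools. The groups also stood apart in depth, with 1.28 and 1.98 M reads in HE and 2.61 and 2.52 M in KO. H2-DMb1 and Ciita were at no more than 2 reads in any pool, and Ciita was listed at 0 in both KO pools. H2-Ab1, under 1 CPM in both KO pools, passed the filter of 1 CPM only through the HE pools. Its test is not independent of that filter.

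By limma 0 of the 5 genes tested passed, where 0.527% of all genes did. At unadjusted p under 0.05 there were 3 of 5, and 2354 of all 17276 genes. By edgeR 1 was called, Cd74 (-2.10, edgeR adjusted p = 0.0515), among 310 of all genes tested. Cd74 differed by -1.97 (SE 0.46, limma adjusted p = 0.124), H2-Ab1 by -1.98 (SE 0.56, limma adjusted p = 0.181) and H2-Aa by -1.52 (SE 0.5, limma adjusted p = 0.243). H2-Eb1 (-1.02, SE 0.52) and H2-DMa (-0.98, SE 0.56) lay nearer 0. With litter added to the model as a block, 3 of 5 were called lower by limma, against 3.25% of genes tested. They were Cd74 (adjusted p = 5.40e-05), H2-Ab1 (0.0239) and H2-Aa (0.0834), where the adjusted p of Cd74 ranged over all alternatives from 5.40e-05 to 0.896. With any 1 of the 4 pools left out, a group holds 1 pool, and neither members nor other genes were called by limma. Over all alternatives Cd74 differed by -2.56 to -1.37.

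The litters differed in size of effect. In litter 85 Cd74 was lower in KO by -3.02 and in litter 97 by -0.92. H2-Ab1 showed -2.79 and -1.17, H2-Aa -2.20 and -0.83. Every member difference in litter 85 was the larger except that of H2-DMb1, which had no reads there. KO pool 1 of litter 85 is the pool of 2 embryos with Xist at 1.55 CPM, so sex and litter cannot be told apart in these differences.

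Leukocyte markers moved alongside here as well. Their sum was 65.1 and 27.9 CPM in HE and 5.00 and 19.1 CPM in KO, highest for Ptprc, with all 4 lower in KO and 0 called (median -1.66). The macrophage list without Lyz2 summed to 126 and 84.2 CPM in HE (most abundant Cybb in pool 1 and Itgam in pool 2) and to 28.2 and 33.6 CPM in KO (Csf1r). Of its 15 genes 14 were tested, 13 were lower in KO, and Cybb (-3.06) and Mrc1 (-2.5) fell. In the B cell, dendritic and T cell lists 2 genes each were tested, all 6 were lower in KO (medians -0.71, -1.04 and -0.93) and none passed. The 8 stromal genes were all lower in KO, and Col3a1 fell, while 3 of 5 erythroid and 5 of 8 enterocyte genes fell. The authors' sort left out doublets, and the part of these cells in the class II values was not tested.

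In the presentation lists, Ctss fell (-2.27), the 1 of 10 loading genes that passed. None of the 7 promoter factors, 7 interferon axis genes, 5 costimulation genes and 12 class I genes tested passed. The median of the 5 class II genes was -1.52 and that of all genes 0.08. Of 8 stem cell genes Axin2 rose (0.92) and Lgr5 fell (-0.97), 1 of 6 goblet genes rose, and none of the Paneth, tuft or epithelial genes passed.

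The Cre set was made to see what acute loss of Lgr5 does in the adult ileum. With labelled genotypes, Cd74 was at 1099 and 896 CPM in HE and at 1207, 968 and 1154 CPM in cKO. H2-Aa was at 401 and 388 CPM against 359, 400 and 335 CPM, and H2-Ab1 at 415 and 300 CPM against 404, 372 and 387 CPM. The groups overlapped for all 7 genes. H2-Eb1 had the widest spread, at 56.5 and 35.7 CPM in HE and at 227, 49.7 and 190 CPM in cKO, so that 2 libraries stood well above the other 3. H2-DMa was at 66.3 to 77.5 CPM and H2-DMb1 at 33.1 to 49.0 CPM over the 5 libraries. Ciita was at 125 and 86.6 CPM in HE and at 167, 88.8 and 164 CPM in cKO.

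By limma 0 of 7 class II genes passed, where 0.0504% of genes did. At unadjusted p under 0.05 there was 1, H2-Eb1 (1.5, SE 0.6, limma adjusted p = 0.864), and edgeR called 0, with 1 at unadjusted p under 0.05. Of all 19848 genes 902 were under that threshold by limma and 695 by edgeR. Without the library labelled cKO 2 H2-Eb1 was called, at 2.18 (limma adjusted p = 0.0597, within a range from 0.0597 to 1.00 over the alternatives). In that fit 22 of 19602 genes were called. Cd74 differed by 0.15 (SE 0.15, limma adjusted p = 0.872) and Ciita by 0.37 (SE 0.3, limma adjusted p = 0.864). The median of all genes was 0.09 and moved to -0.04 with TMM factors. The signs of H2-Ab1 (0.13) and H2-DMb1 (0.09) turned with it, to -0.01 and -0.04. No gene of any of the other lists passed.

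With the genotypes of the study's own gene list, the cKO libraries had Ciita at 125, 167 and 164 CPM and the HE libraries at 86.6 and 88.8 CPM. Ciita did not overlap and was the 1 of 7 genes that passed by limma, where 3.92% of genes did. It averaged 152 ± 23.3 CPM (SD, n = 3) in cKO and 87.7 ± 1.59 CPM (SD, n = 2) in HE, a difference of 0.77 (SE 0.14, limma adjusted p = 0.0451). Cd74, H2-Ab1, H2-Eb1 and H2-DMb1 did not overlap either, with differences of 0.31, 0.27, 1.65 and 0.36, and H2-Aa and H2-DMa did. Of 19848 genes 39.5% did not overlap between these groups. There were 4 of 7 at unadjusted p under 0.05, and 4246 of all 19848 genes. By edgeR 0 were called, with 2 of 7 and 3578 of all genes at unadjusted p under 0.05. The call was lost without HE 2, cKO 2 or cKO 3 (0 members each, labelled names), there was 1 without cKO 1, where 703 of 18736 genes were called, and there were 2 without HE 1, where 2170 of 19647 were. Since the list was chosen by the study on these libraries, its genotypes are not an independent source. Under it the groups also stood apart in depth, with 9.06, 8.12 and 9.98 M reads in cKO and 3.08 and 5.72 M in HE, and in genes above 0, with 32121, 35792 and 42154 against 22675 and 24944. Depth and genotype cannot be told apart there.

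**Figure D4:**
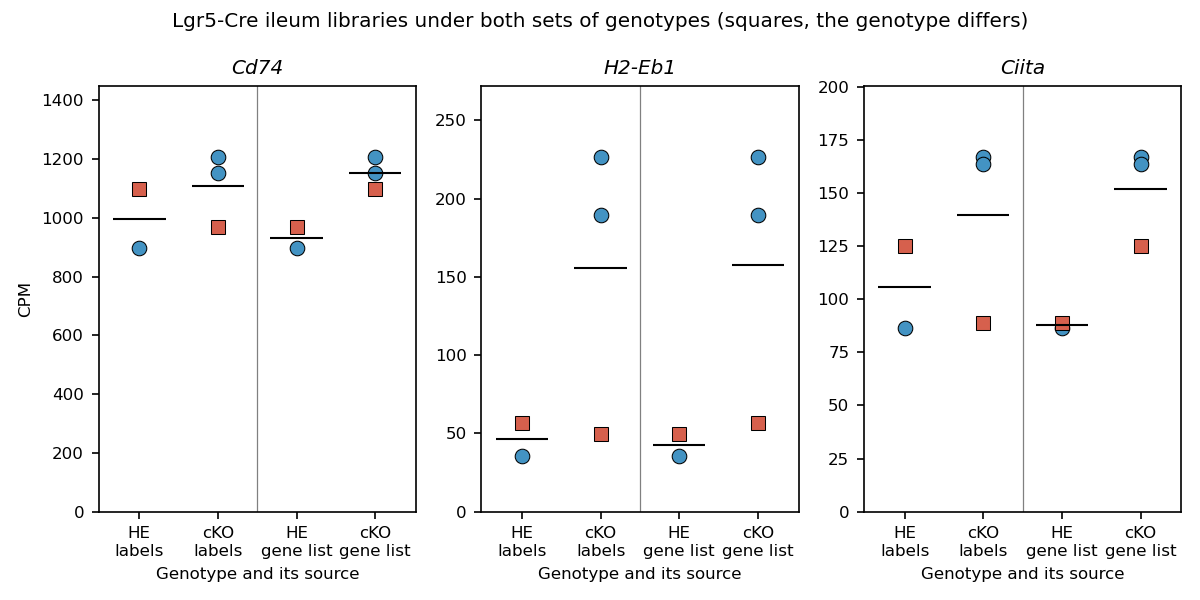
Level (CPM) of Cd74, H2-Eb1 and Ciita in the 5 Lgr5-Cre ileum libraries, grouped by the labelled genotypes (left of the line) and by those of the study's gene list (right), with lines at the group means and squares for the 2 libraries whose genotype differs. Ciita stands at 86.6 and 88.8 CPM in the HE libraries of the gene list and at 125, 167 and 164 CPM in its cKO libraries.

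Under these genotypes Gbp2 (1.57) and H2-T23 (1.35) were higher in cKO, the 1 of the interferon axis and the 1 of class I that passed. H2-T23 was at 46.3 and 36.0 CPM in the mice labelled HE and at 112, 27.9 and 106 CPM in those labelled cKO, high in the same 2 libraries as H2-Eb1. H2-Ea-ps was too, at 33.5 and 41.2 CPM in labelled cKO 1 and cKO 3 and at 1.30 to 3.80 CPM in the other 3. Of 7 Paneth genes 6 fell, Lyz2 fell (-1.0), 3 tuft genes and 1 enterocyte gene rose, and none of the loading, promoter factor, costimulation, B cell, dendritic, T cell, leukocyte, stromal, erythroid, goblet, stem cell or epithelial genes passed. The leukocyte sum was 3.95 to 5.60 CPM in 4 libraries and 15.7 CPM in labelled cKO 3. The B cell sum was 4.95 to 8.85 CPM in 4 and 31.2 CPM in the same library, and their part in the result was not tested.

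In organoids most class II genes were near the detection limit. H2-Aa was at 0 in 28 of 30 libraries and at 0.05 CPM at most, and H2-Ab1 at 0 to 0.25 CPM (median 0.05). H2-DMb1 was at 0 to 0.2 CPM and H2-Eb1 at 0.1 to 0.7 CPM (median 0.35). Cd74 lay between 0.1 and 0.9 CPM (median 0.375), far under its level in any adult sorted library. The E18.5 sorted embryos, nearer in age to these cultures, had Cd74 at 0.7 and 2.00 CPM, so those ranges overlap. Organoid libraries were also prepared in another way than sorted ones. H2-DMa was at 2.30 to 5.90 CPM (median 3.77), and Ciita lay at 0.3 to 1.70 CPM (median 0.625). H2-DMa and Ciita were the 2 of 7 genes that passed the filter on low values and were tested. Ciita was at 1 CPM or more in 9 of 15 libraries at 100 ng/ml and in 0 of 15 at 5 ng/ml. It passed the filter only through the dose at which it is high, so its dose tests are not independent of that filter.

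The dose comparison asks how more Rspondin, a ligand of Lgr5 and its relatives that strengthens Wnt signals, acts on the cultures. Ciita at 100 ng/ml of Rspondin 1 was at 1.25, 1.1 and 1.20 CPM in WT10, WT5 and WT30, and at 5 ng/ml at 0.3, 0.4 and 0.45 CPM. In KO7 and KO2 it was at 0.75 and 0.65 CPM at the high dose and at 0.35 and 0.5 CPM at the low one. Over all ligands Ciita was higher at 100 ng/ml in 15 of 15 pairs of libraries of 1 culture. The high dose spanned 0.45 to 1.70 CPM (median 1.1) and the low dose 0.3 to 0.85 CPM (median 0.45), so the doses overlapped once cultures and ligands were pooled. Each culture gives several of the 15 pairs, so they are not independent. Here and below, how many of all genes share such a count of pairs was not counted.

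Tested over all libraries by limma (FDR 0.05), Ciita rose with dose in 2 of 6 conditions. These were wild type with Rspondin 1, by 0.66 (SE 0.13, limma adjusted p = 2.17e-04), where 53.4% of genes passed in either direction, and wild type with Rspondin 2, by 0.55 (SE 0.13, limma adjusted p = 0.00287), where 33.4% did. Without WT30 the call with Rspondin 2 was lost, at 0.39. With Rspondin 3 it was 0.24 in wild type (limma adjusted p = 0.124; background 51.4%) and 0.35 in KO (0.0782; background 44.5%). In KO it was 0.26 with Rspondin 1 (limma adjusted p = 0.231; background 29.8%) and 0.55 with Rspondin 2 (0.307; background 0.115%). Without KO2, whose low-dose library with Rspondin 2 stands apart, that last difference was also 0.55. Against such large shares of all genes, the calls of Ciita are near the background of their contrasts. The difference between genotypes in the dose effect was tested itself, and 0 of 6 such tests of H2-DMa and Ciita passed by limma, where 0.146% did. None was at unadjusted p under 0.05 in this fit, the lowest being Ciita with Rspondin 1 (-0.4, limma unadjusted p = 0.0609). With the culture as a block 2 of 6 were, as were 6901 of 57390 tests of all genes, and 0 of 6 passed.

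The scaling of the libraries matters for these contrasts. The median of all genes was 0.28, 0.17 and 0.24 in wild type and 0.19, 0.04 and 0.24 in KO for Rspondin 1, 2 and 3, and with TMM factors it lay between -0.04 and 0.05. In wild type with Rspondin 1, 7830 genes rose and 2394 fell, against 4249 and 4479 with TMM. The split was 4650 and 1745 against 2458 and 3353 with Rspondin 2, and 7223 and 2616 against 4933 and 4189 with Rspondin 3. In KO it was 4190 and 1504 against 2393 and 2706 with Rspondin 1, 22 and 0 against 9 and 0 with Rspondin 2, and 6259 and 2248 against 4209 and 3749 with Rspondin 3. Ciita passed in wild type with Rspondin 1 and 2 under TMM as well, at 0.51 and 0.43.

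Cd74 was too low to be tested, yet it followed Ciita: it was higher at 100 ng/ml in 13 of 15 pairs, equal in 1 and lower in 1. At the high dose it was at 0.3 to 0.9 CPM (median 0.65) and at the low dose at 0.1 to 0.7 CPM (median 0.2). With no filter on low values Cd74 passed in all 3 wild-type conditions by limma, at 0.45 (adjusted p = 0.00371), 0.49 (0.00408) and 0.32 (0.0391), and in KO with Rspondin 3, at 0.47 (0.0148). In KO with Rspondin 1 and 2 it was 0.23 and 0.05 and did not pass. Over the 6 dose contrasts of that fit 39150 of 238002 tests of all genes passed, 29178 of them upward, so a rise of Cd74 is no rare result there. H2-Eb1 was lower at 100 ng/ml in 8 of 9 wild-type pairs and higher in 1, and in KO it was lower in 2, equal in 2 and higher in 2 of 6.

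H2-DMa in wild type was likewise lower at 100 ng/ml in 8 of 9 pairs and equal in 1, while in KO it was higher in 4 of 6 and lower in 2. The KO pairs with Rspondin 3 were close, at 4.55 against 4.45 CPM in KO7 and 3.80 against 3.75 CPM in KO2. With TMM factors that KO difference turned from 0.02 to -0.21. With Rspondin 1 H2-DMa was at 3.75, 3.95 and 2.55 CPM at 100 ng/ml and at 5.90, 5.30 and 3.90 CPM at 5 ng/ml in WT10, WT5 and WT30. That difference was -0.45 (SE 0.21, limma adjusted p = 0.0786). It passed with TMM factors, at -0.72 (limma adjusted p = 0.00517), and with the culture as a block, at -0.45, within a range of adjusted p from 0.00517 to 0.275. Over all dose contrasts 36727 of 114780 tests of all genes passed with TMM factors and 52321 with the block. The other 5 dose differences of H2-DMa ran from -0.29 to 0.29, and none passed.

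**Figure D5:**
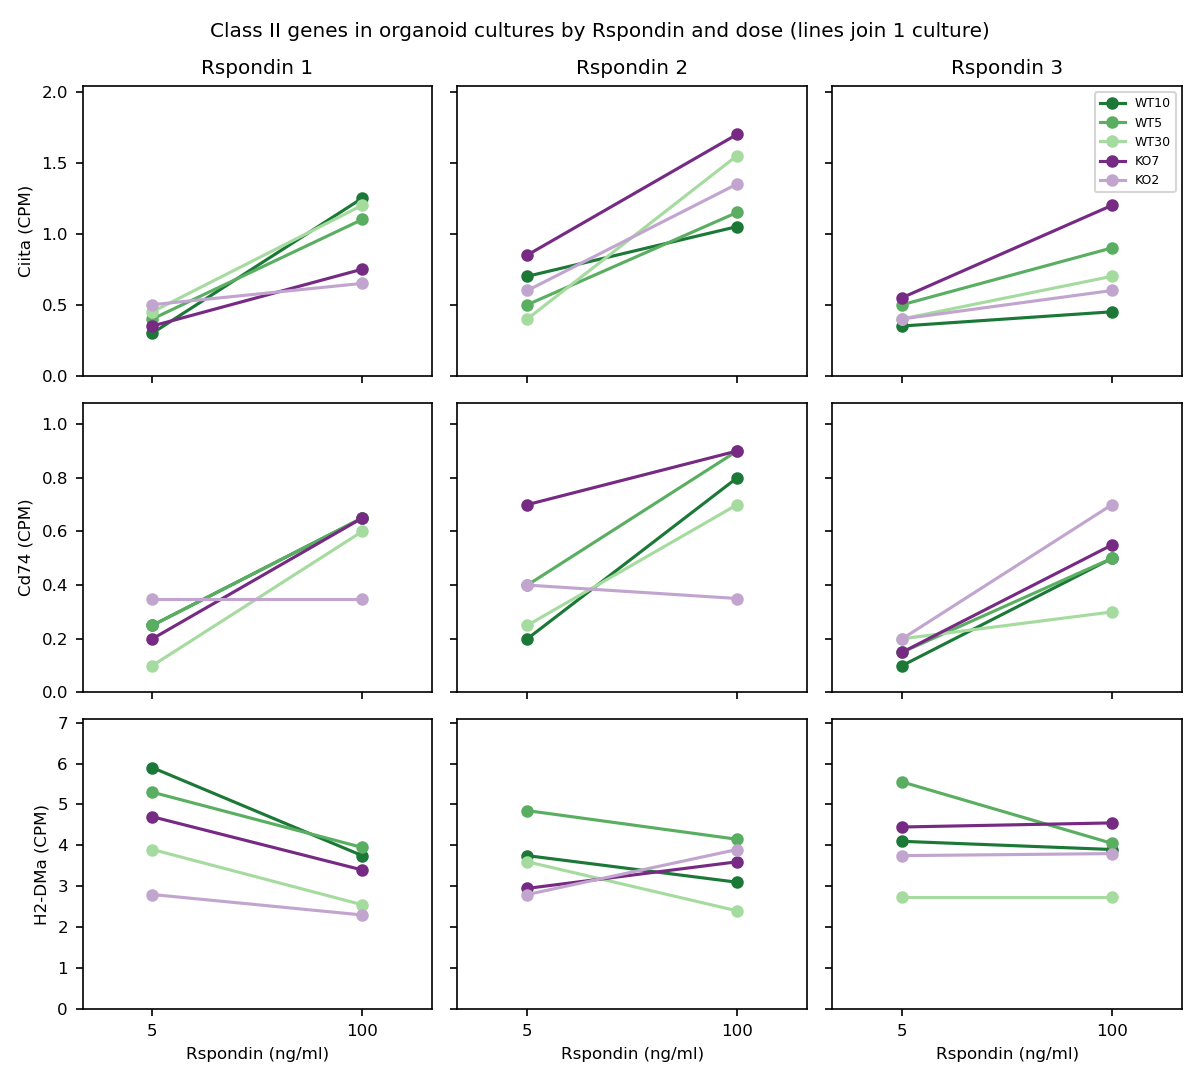
Level (CPM) of Ciita, Cd74 and H2-DMa at 5 and 100 ng/ml of each Rspondin, with lines that join the 2 doses of 1 culture. Ciita is higher at 100 ng/ml in 15 of 15 pairs, Cd74 in 13 of 15 and H2-DMa in 4 of 15. Pairs of 1 culture are not independent, and such pairs were not counted over all genes.

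KO organoids were compared with wild type in each of the 6 conditions. For H2-DMa and Ciita 0 of 12 tests passed by limma, where 1.19% did over all genes. Ciita with Rspondin 1 at 100 ng/ml was the 1 at unadjusted p under 0.05 (-0.36, limma adjusted p = 0.477), with 0.75 and 0.65 CPM in KO and 1.1 to 1.25 CPM in wild type. How many of all genes lay apart in this way was not counted. Of 114780 tests of all genes 12944 were under that threshold. Averaged over its 6 conditions for each culture, H2-DMa differed by -0.09 (SE 0.18, limma adjusted p = 0.921), and 0 of 1 member tested passed where 0.169% of genes did. At unadjusted p under 0.05 there was 0 of 1.

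Rspondin 2 and 3 were each compared with Rspondin 1 at both doses and in both genotypes. For the same genes 0 of 16 tests passed by limma, where 9.19% did over all genes. At unadjusted p under 0.05 there were 2, both of Ciita at 100 ng/ml: Rspondin 3 in wild type (-0.38, limma adjusted p = 0.109) and Rspondin 2 in KO (0.57, limma adjusted p = 1.00). Over all genes 30442 of 153040 tests were. Ciita in wild type at 100 ng/ml was at 0.45, 0.9 and 0.7 CPM with Rspondin 3 and at 1.1 to 1.25 CPM with Rspondin 1. With the culture as a block that difference passed, where 26746 of 153040 tests of all genes did over the ligand contrasts. Under TMM no member passed in the ligand or genotype comparisons, though the split of all genes moved. At 100 ng/ml in wild type the genes called up and down with Rspondin 3 went from 0 and 1 to 188 and 30. At 5 ng/ml with Rspondin 2 they went from 3144 and 1214 to 1877 and 1697 in wild type and from 2595 and 834 to 1533 and 1503 in KO. With Rspondin 3 at that dose they went from 706 and 2428 to 1024 and 1704 in wild type and from 599 and 2506 to 867 and 1803 in KO. For KO against wild type with Rspondin 2 at 5 ng/ml they went from 608 and 260 to 387 and 325.

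Other presentation genes in organoids were read for the dose contrasts. Of 12 class I genes tested, 6, 1 and 7 fell at the high dose in wild type with Rspondin 1, 2 and 3, where 1 rose with Rspondin 3. In KO 1, 0 and 6 fell. With Rspondin 2 in both genotypes, and with Rspondin 1 in KO, these counts were near the share of all genes that fell. Of 7 interferon axis genes tested 3, 1 and 2 fell in wild type and 1, 0 and 1 in KO. Of the 7 promoter factors 3, 2 and 3 passed upward in wild type and 3, 0 and 3 in KO, and in wild type that is near the share of all genes: 7830, 4650 and 7223 of 19130 genes rose in wild type and 4190, 22 and 6259 in KO, fewer with TMM factors. The genes that fell were 2394, 1745 and 2616 in wild type and 1504, 0 and 2248 in KO, more with TMM factors except in KO with Rspondin 2. No other class II region gene was tested. Of 9 loading genes 4, 2 and 3 fell in wild type and 2, 0 and 4 in KO, where Ctsl (1.27) and Lgmn (0.88) rose with Rspondin 1. Of 3 costimulation genes tested Cd276 rose in 5 of the 6 contrasts, by 1.47 to 2.33, and Icosl fell in wild type with Rspondin 3 (-1.15).

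By the measure of likeness, Pearson r with the mean standardised log2(CPM + 1) of the 7 genes, the nearest genes over the 15 sorted libraries (13096 genes compared) were Mir5107 (0.983) and Dexi (0.98), which lie in or across Cd74 and Ciita. Next came Nt5dc3 (0.978), Abcb1a (0.976), App (0.975), Plcb4 (0.973), Nab1 (0.973) and Emp2 (0.972). Over the 30 organoid libraries (12338 genes compared) they were Adcy9 (0.651), Tacc2 (0.644), Slc25a36 (0.64), Krt23 (0.634), Tnfsf15 (0.629), Shb (0.627), Nr1d2 (0.623) and Zswim4 (0.618). The sorted libraries form clusters by stage and region, and libraries of 1 culture are not independent, so these values only describe the pattern. In organoids the 7 genes did not vary together, with r between pairs from -0.548 (Cd74 with H2-Eb1) to 0.764 (Cd74 with Ciita) over 30 libraries, so their mean stands for no common pattern there.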

How the data were processed

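RNA was measured in eGFP-positive sorted cells (Ovation SoLo libraries) and in organoids (libraries after removal of ribosomal RNA), all as paired-end reads. The authors trimmed reads with Trimmomatic 0.36, mapped them with STAR 2.5.3a to mouse genome GRCm38.p4 (mm10) and counted them per gene with HTSeq 0.9.1. The deposited values are counts-per-million (CPM), rounded up to steps of 0.05. From these steps whole reads were recovered for the 15 sorted-cell libraries, and 99.8% or more of the values came out as 1 whole number in each. Depth and the limit that 3 reads set are given per kind of library with the results. Gene positions come from GENCODE, where 52489 of the 52636 identifiers were found.

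The 7 members and the other gene lists were chosen with earlier results of these data known. The lists cover other class II region genes, class II loading and turnover, class II promoter factors, the interferon gamma axis, costimulation, class I presentation, and markers of B cells, macrophages and monocytes, dendritic cells, T cells and innate lymphocytes, all leukocytes, stroma and endothelium, erythroid cells, epithelium, stem cells, enterocytes, Paneth, goblet and tuft cells. Some genes of these lists are not reported here and are in none of the counts and sums. Named are all members, and of the presentation lists in sorted cells the genes called, or the 4 with the largest change where more were called. The same rule was planned for the cell-type lists and for organoids, where counts are given and called genes are named in part. The 8 genes most like the members are named among genes with a mean of at least 5 CPM. Other markers named by their level alone, such as Epcam, were picked after their values were seen.

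Each comparison was fitted over all genes with limma 3.58.1 (lmFit, eBayes with trend) on log2(CPM + 1) in R 4.3.3, two-sided, with Benjamini-Hochberg adjustment over genes at 1 CPM or more in a number of libraries equal to the size of the smallest group. Sorted cells were called at a false discovery rate (FDR) of 0.1 and a fold change above 1.5. Organoids were called at FDR 0.05 in 1 fit of 30 libraries and 12 groups. Some comparisons share libraries and are not independent: the E16.5 HE, E18.5 HE and adult HE libraries each serve more than 1 of them. The code was tested on simulated data. Alternatives were a pseudocount of 0.1, no filter, a mean of at least 10 CPM, TMM factors, other thresholds, 1 fit of all 15 sorted libraries, each library left out, a replicate block, and the edgeR 4.0.16 quasi-likelihood test on whole reads. edgeR called 310 genes at E16.5, 3705 in adults against E18.5 and 142 for the gene-list genotypes of the Cre set.

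For the block, the labels give litters as pairs at E16.5, the same mice for duodenum and ileum, and 1 culture for 6 organoid libraries. After removal of group means, paired libraries correlated over genes at -0.0324 at E16.5 and 0.257 for duodenum and ileum. In organoids the lowest pair of a culture ran from 0.155 to 0.431. Python 3.11.15 was used for the summaries with pandas 2.3.3, numpy 2.4.6 and scipy 1.17.1, and figures were drawn with matplotlib 3.10.9.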

Additional observations from a re-analysis of the deposited data

Results flagged for a closer look

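The dose effect of Rspondin 2 on H2-DMa differed in direction between the genotypes. All 3 wild-type cultures had H2-DMa higher at 5 ng/ml (3.75, 4.85 and 3.60 CPM) than at 100 ng/ml (3.10, 4.15 and 2.40 CPM). Both KO cultures had it higher at 100 ng/ml (3.60 and 3.90 CPM) than at 5 ng/ml (2.95 and 2.80 CPM). The difference between the dose effects, KO minus wild type, was 0.57 on the log2 scale (SE 0.34, limma adjusted p = 0.497), so it did not pass its own test. Over the alternatives, the culture as a block among them, its limma adjusted p ran from 0.115 to 0.510, and it did not pass. The low-dose library of KO2 is the one whose Lgr5 level stood apart from the other low-dose libraries. The cause of the difference was not tested.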

How the results depend on the processing

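Of 835 alternative values of the members, 755 kept their direction and their side of the threshold, 14 passed it where the main value did not, 48 no longer passed and 18 changed sign, none of them called before. The cause was not tested unless stated.

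Members called, out of those tested, moved as follows. At E16.5, KO against HE went from 0 to 1 with a mean of at least 10 CPM (1 tested), with TMM factors and with edgeR, and to 3 with 1 fit of all 15 sorted libraries and with the replicate block. The main fit called 91 of 17276 genes, a mean of at least 10 CPM 196 of 9739, TMM factors 243 of 17276 and edgeR 310 of 17276. The fit of all 15 sorted libraries called 1073 of 22963 genes, and the replicate block 830 of 17276. E18.5 against E16.5 went from 5 to 1 with a mean of at least 10 CPM, since 1 member was then tested. Of all genes 5212 of 10252 were called in that setting. The Cre comparison went from 0 to 1 with the gene list's genotypes, where 779 of 19848 genes were called in place of 10. Organoid dose went from 2 to 6 with no filter, where 42 tests replaced 12, and to 1 at FDR 0.1 with a fold change above 1.5. Dose reached 3 with TMM factors and with the replicate block. Of all dose tests 39150 of 238002 passed with no filter and 28942 of 114780 at FDR 0.1 with that fold change. With TMM factors 36727 of 114780 passed, and with the block 52321. Adults against E18.5 went from 7 to 6 with no filter and at FDR 0.05, and ileum against duodenum from 7 to 5 with no filter. In adults against E18.5 these settings called 3371 of 33867 and 3155 of 19554 genes. No filter called 223 of 31935 genes in ileum against duodenum. Ligand went from 0 to 1 with the replicate block, where 26746 of 153040 tests of all genes passed. A mean of at least 10 CPM left no member to test in organoids. The replicate block changed no other call of a member, apart from H2-DMa in wild type with Rspondin 1.

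When single libraries or whole cultures were dropped one at a time, the number of members called ran from 0 to 0 at E16.5, 1 to 7 in adults against E18.5, 0 to 5 in ileum against duodenum, 0 to 6 in E18.5 against E16.5, 0 to 1 in the Cre set, 0 to 2 with its gene-list genotypes (these left-out fits and an edgeR fit were chosen after seeing the data), 1 to 2 for dose, and 0 to 0 for KO against wild type, ligand and culture means. Where this left 1 library in a group, it is assumed to vary like the other groups.

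Signs changed in the Cre set with TMM for H2-Ab1 (-0.01) and H2-DMb1 (-0.04, and -0.04 in edgeR), and with libraries left out for H2-Ab1 (-0.10 without HE 2, 0.37 without HE 1) and H2-DMb1 (-0.18 and 0.37). In organoids H2-DMa changed sign in the KO dose effect of Rspondin 3 with TMM (-0.21). With cultures left out, KO minus wild type ran for H2-DMa from -0.41 (without KO7) to 0.01 (KO2) with Rspondin 1 at 100 ng/ml and from -0.18 (WT30; KO7 -0.08) to 0.22 (WT5) with Rspondin 3 at 5 ng/ml. For Ciita it ran from -0.03 (KO2) to 0.12 (KO7) with Rspondin 1 at 5 ng/ml, and with Rspondin 3 from -0.06 (KO7) to 0.39 (KO2) at 100 and from -0.02 (KO7) to 0.13 (KO2) at 5 ng/ml. Against Rspondin 1, Ciita ran from -0.05 (WT30) to 0.12 (WT10) for Rspondin 2 in wild type at 100 ng/ml, and for Rspondin 3 in KO from -0.04 (KO7) to 0.33 (KO2) at 100 and from -0.10 (KO7) to 0.20 (KO2) at 5 ng/ml, where H2-DMa ran from -0.06 (KO2) to 0.32 (KO7). In the culture means H2-DMa ran from -0.23 (WT30) to 0.03 (KO2), with 0.02 without WT5.

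Genes called over all alternatives ran from 0 to 1073 at E16.5 (main 91), 1056 to 5207 in adults against E18.5 (3717), 0 to 2065 in ileum against duodenum (1280), 0 to 10215 in E18.5 against E16.5 (9138), 3 to 779 in the Cre set (10), and, summed over contrasts in organoids, 26641 to 52321 for dose (40681), 322 to 2922 for KO against wild type (1365), 7609 to 26746 for ligand (14068), 35 to 761 for dose by genotype (84) and 13 to 184 for culture means (29). Where libraries share no more than a number, the replicate block is paired without a stated source: it gave 9419 genes and 5 members in E18.5 against E16.5 (paired correlation -0.0186), 3448 and 7 in adults against E18.5 (0.0190 and 0.0263), and 16 and 0 in the Cre set (0.161 and 0.419).

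Depth limits the embryonic values. At E16.5 and E18.5 H2-DMb1 and Ciita had at most 3 reads, so any difference in either rests on these few reads. In organoids, which were sequenced more deeply, 5 of 7 members stayed under the 1 CPM filter.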
